A study of Mus musculus with 32 samples.

Results

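Transcripts of 3 immunoglobulin chains and of the joining chain were followed across 32 mouse lymphomas. The members are Ighm (the constant region of the IgM heavy chain), Igha (the constant region of the IgA heavy chain), Iglv1 (a variable segment of the lambda light chain) and Jchain (the joining chain of polymeric IgM and IgA). They were taken as the probe sets that the platform annotation gives to 1 of these symbols alone, which found 18 of the 45101 probe sets on the array. For each gene the probe set with the highest mean led, and the 4 genes were set against 11228 genes in all.

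The tumours came from mice that carry the Eµ-myc transgene, which places the oncogene Myc under an enhancer of the immunoglobulin heavy chain locus and so drives it in B lineage cells. Each of the 32 tumours was measured on 1 Affymetrix Mouse430_2 array, and all belong to 1 group with no control samples, treatments or stated ages. RNA came from frozen tissue or from pelleted cells, without a label for each tumour. Whether any tumours shared a mouse is not labelled either, so the p-values measure only the spread between these 32 arrays, which may in part be technical. Values are log2 RMA intensities, on which a difference of 1 is a factor of 2. Array medians ran from 5.72 to 5.80, 0 pairs of arrays were identical, and the correlation between arrays ran from 0.938 to 0.993. The B lineage markers Cd79a, Cd79b, Pax5, Cd72 and Blnk were above the array's median in all 32 tumours. Transcripts of the salivary gland were high in 11 tumours and low in the other 21.

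A B cell first makes IgM, whose heavy chain ends in the Ighm constant region. Class switch recombination then joins the same variable region to another constant region further along the heavy chain locus, of which Igha lies at the far end. Each heavy chain pairs with a kappa or a lambda light chain, and a clone of B cells usually keeps 1 productive heavy chain and 1 light chain. The joining chain links units of IgM into pentamers and units of IgA into dimers, and its gene is switched on as B cells become antibody-secreting cells. In RefSeq, Ighm and Igha lie on chromosome 12, Iglv1 on chromosome 16 and Jchain on chromosome 5. The constant regions follow each other there in the order Ighm, Ighd, Ighg3, Ighg1, Ighg2b, Ighg2c, Ighe and Igha. Of these 8, Ighm, Ighg3 and Igha had probe sets of their own name, with 11, 4 and 3 probe sets.

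Of the 4 members Jchain had an entry in the RefSeq promoter table (GRCm38.p6). It is shown because, of the 4 leading probe sets, that of Jchain had the widest range and the most genes following it over all 32 tumours. The 250 bases before its start, chr5:88527898-88528147 on the minus strand, are printed with each match to the E box CANNTG in capitals, a motif bound by B cell factors such as E2A.
Jchain: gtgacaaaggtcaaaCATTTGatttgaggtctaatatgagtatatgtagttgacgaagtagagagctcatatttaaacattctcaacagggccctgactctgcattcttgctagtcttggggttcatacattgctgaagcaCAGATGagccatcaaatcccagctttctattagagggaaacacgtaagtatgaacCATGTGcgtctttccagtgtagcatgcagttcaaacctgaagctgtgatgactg
The window held 3 such matches, between 54 and 235 bases before the start, and 66.2% of 32851 promoter windows of this length held at least 1. On either strand it held 0 matches to the immunoglobulin octamer ATGCAAAT, which 1.60% of the windows held, and 0 to the PU box GAGGAA, which 23.3% held. The 3 matches did not overlap each other.

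Ighm was high in nearly every tumour and varied least of the 4 genes. By its leading probe set it ran from 9.64 in tumour 2 over a median of 12.66 to 14.06 in tumour 24, with an SD of 0.77 (n = 32), rank 804 of 11228 genes by SD. Tumour 2 stood apart at the low end, 1.83 below the next tumour, number 19 at 11.46, which was followed by tumour 31 at 11.70. The other 29 tumours lay at 12.13 or above. In bulk RNA, fewer cells that express a gene and less RNA per cell cannot be told apart.

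Igha, low or absent in cells that have not switched to IgA, was raised in a minority of tumours. By its leading probe set it ran from 5.53 in tumour 31 over a median of 7.49 to 13.76 in tumour 2, with an SD of 2.25 (n = 32), rank 22 of 11228. The 7 highest tumours were number 2 at 13.76, 19 at 13.01, 17 at 12.48, 21 at 12.40, 23 at 11.13, 3 at 10.94 and 6 at 10.88. The other 25 tumours lay at 8.86 or below, so a gap of 2.02 separated both sets. That gap is 24.6% of the range, just under the 25% at which a gene was treated as clustered, and pairs of members are therefore given over all tumours and also within each side.

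Iglv1 spread more evenly, with no wide gap. By its leading probe set it ran from 4.07 in tumour 31 over a median of 7.57 to 12.41 in tumour 22, with an SD of 2.35 (n = 32), rank 21 of 11228. The 6 highest tumours were number 22 at 12.41, 4 at 12.10, 21 at 11.74, 11 at 11.30, 7 at 11.08 and 25 at 10.79. Most of them were not among the 7 tumours with high Igha, with which they share tumour 21. With sets this small, such an overlap can arise without any relation, and it was not tested.

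Jchain had the widest range of the 4 leading probe sets. It ran from 3.31 in tumour 29 over a median of 7.12 to 12.93 in tumour 2, with an SD of 2.50 (n = 32), rank 16 of 11228. The 7 highest tumours were number 2 at 12.93, 4 at 11.82, 24 at 11.16, 19 at 10.89, 17 at 10.76, 21 at 10.34 and 3 at 9.66. The lowest and the highest tumour lay 9.62 log2 units apart for Jchain, 8.34 for Iglv1, 8.22 for Igha and 4.43 for Ighm. The lowest values of Jchain, Iglv1 and Igha are below 5.78, the level of the filter on low values, and close to the background of the array, so these spans are not given as folds. Of all 11228 genes, 31 (0.276%) had an SD over 2, a set that holds Igha, Iglv1 and Jchain, and 380 (3.38%) had one over 1. Ighm was in neither set.

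**Figure D1:**
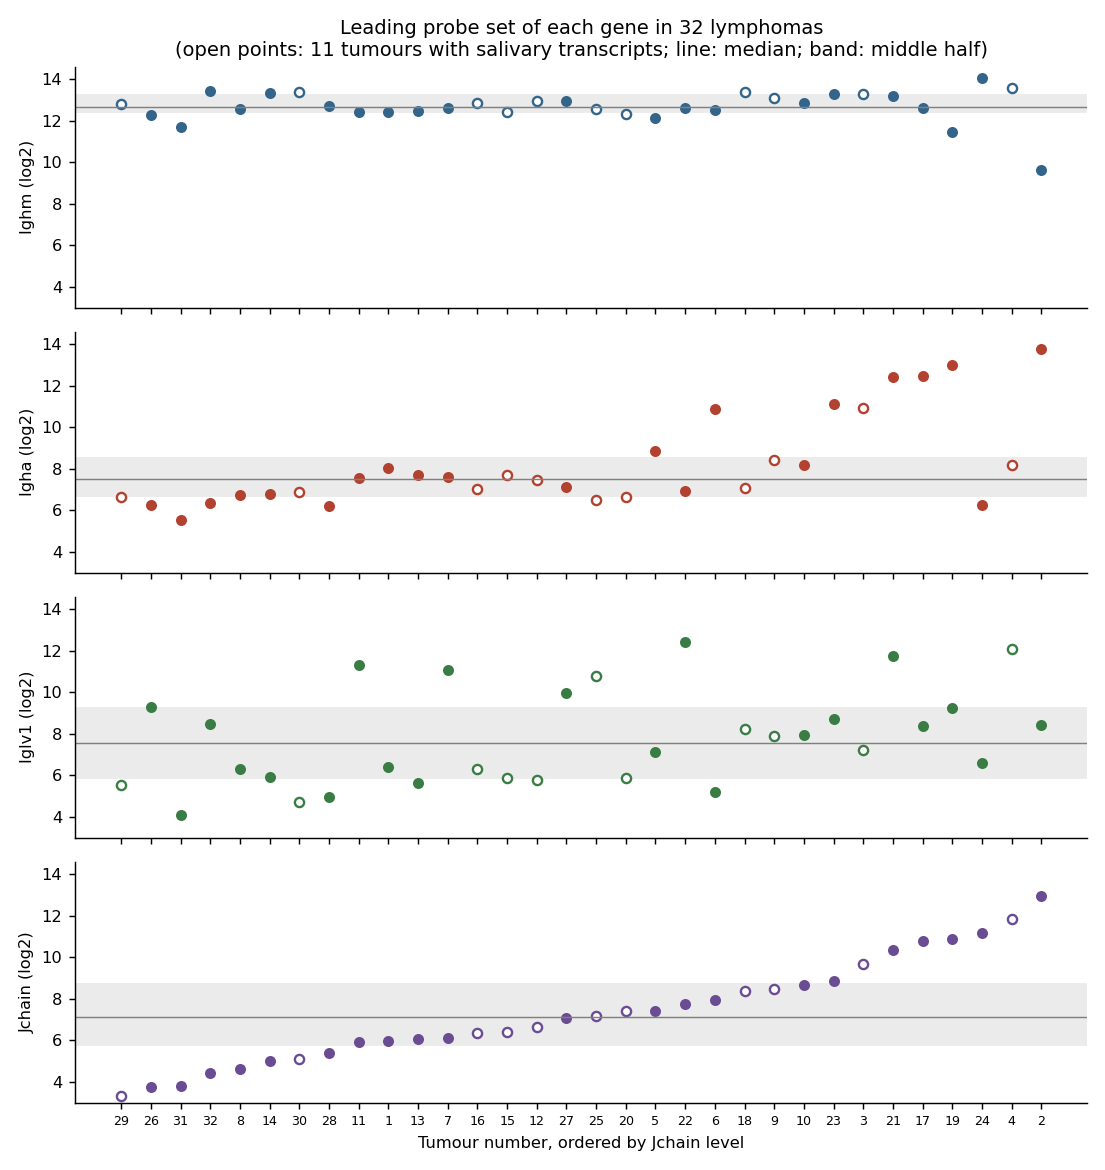
Log2 level of the leading probe set of Ighm, Igha, Iglv1 and Jchain (vertical axes) in each of the 32 tumours (horizontal axis, ordered by Jchain), where open points are the 11 tumours with salivary transcripts, the line is the median and the band spans the middle 50% of tumours. Tumour 2, at the right end, has the highest Jchain at 12.93 and Igha at 13.76 and the lowest Ighm at 9.64.

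The tumours that were high for 1 gene were in part different from those high for another. Among the 8 highest tumours of each gene by its leading probe set, 0 tumours were shared by all 4 genes. With 8 of 32 tumours per gene, a count of 0 can arise without any relation, and it was not tested. By the Ighm probe set 1427870_x_at, described below, tumour 21 would be shared by all 4. Tumours 3, 4, 21 and 23 were in the upper 8 of 3 genes, and tumours 2, 17, 19 and 24 in that of 2. At the low end tumour 31 was in the lower 8 of all 4 genes, and tumours 20, 26, 28 and 29 in that of 3. In the 11 tumours with salivary transcripts the medians were 12.95 for Ighm, 7.10 for Igha, 6.28 for Iglv1 and 7.18 for Jchain. In the other 21 they were 12.59, 7.59, 8.36 and 7.06 in the same order. The ranges of both sets of tumours overlapped for each of the 4 genes.

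The probe sets of a gene did not always give the same picture. The 3 probe sets of Igha did: their correlation with the leading one was 0.99 and 0.99, and each placed the same 7 tumours over 2 log2 units above its own median. Jchain has 1 probe set, so this check cannot be made for it.

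The 11 probe sets named Ighm fell into different patterns. The second by mean, 1427329_a_at, followed the leading 1427351_s_at with r = 0.95 and was also lowest in tumour 2, at 9.25. A further 5 (1427870_x_at, 1425247_a_at, 1425324_x_at, 1427756_x_at and 1427869_at) had r from -0.13 to -0.25 with the leading one and of at least 0.937 with each other. The highest of them by mean, 1427870_x_at, was at 14.31 in tumour 4, 13.78 in tumour 2, 11.83 in tumour 17, 11.63 in tumour 21 and 10.86 in tumour 3. Its sixth highest tumour was at 8.46 and its median at 7.48, so 5 tumours stood well above the rest. Tumour 2 was thus lowest by the leading probe set and second highest by this one. Of the others, 1425385_a_at was highest in tumours 4, 3, 25, 12 and 2, 1452535_at stood out in tumour 4 at 9.68, and 1451949_at and 1426196_at had SDs of 0.13 and 0.12. Which part of the heavy chain each probe set matches is not analysed here, and binding to transcripts of similar segments was not tested.

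Those 5 probe sets followed Jchain where the leading one did not. In limma's fit of all 45100 other probe sets along the Jchain level, 674 (1.49%) had a Benjamini-Hochberg adjusted p under 0.05. These included 1425247_a_at (r = 0.71, adjusted p = 0.00598), 1427870_x_at (r = 0.70, adjusted p = 0.00601), 1425324_x_at (r = 0.69, adjusted p = 0.00679), 1427756_x_at (r = 0.68, adjusted p = 0.00776) and 1427869_at (r = 0.59, adjusted p = 0.0319). The leading probe set had r = -0.11 and an adjusted p of 0.819 there. This fit used no filter on low values, which 1425324_x_at, 1427756_x_at and 1427869_at did not pass. Their medians were 4.44, 4.58 and 4.50, close to the background of the array. Since the 5 have r of at least 0.937 with each other, they are not separate results. Without tumour 2 the adjusted p of the 5 was between 0.0593 and 0.228, so none of the 5 kept its call. Without tumours 2 and 24 it was between 0.0215 and 0.251, and 3 of the 5 were called. Spearman's rho was lower than r for all 5, at 0.30 to 0.49.

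The 3 probe sets of Iglv1 also differed. The second by mean, 1427292_at, had r = 0.59 with the leading 1430523_s_at and was highest in tumour 25 at 10.51 and in tumour 3 at 10.45. The third, 1447918_x_at, had r = 0.28 with it and was highest in tumour 24 at 10.31 and tumour 29 at 9.30. A probe set that names Iglc1, a lambda constant region, together with Iglv1 (1424931_s_at) is no member by the rule. It had r = 0.84 with the leading probe set and 0.89 with 1427292_at.

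**Figure D2:**
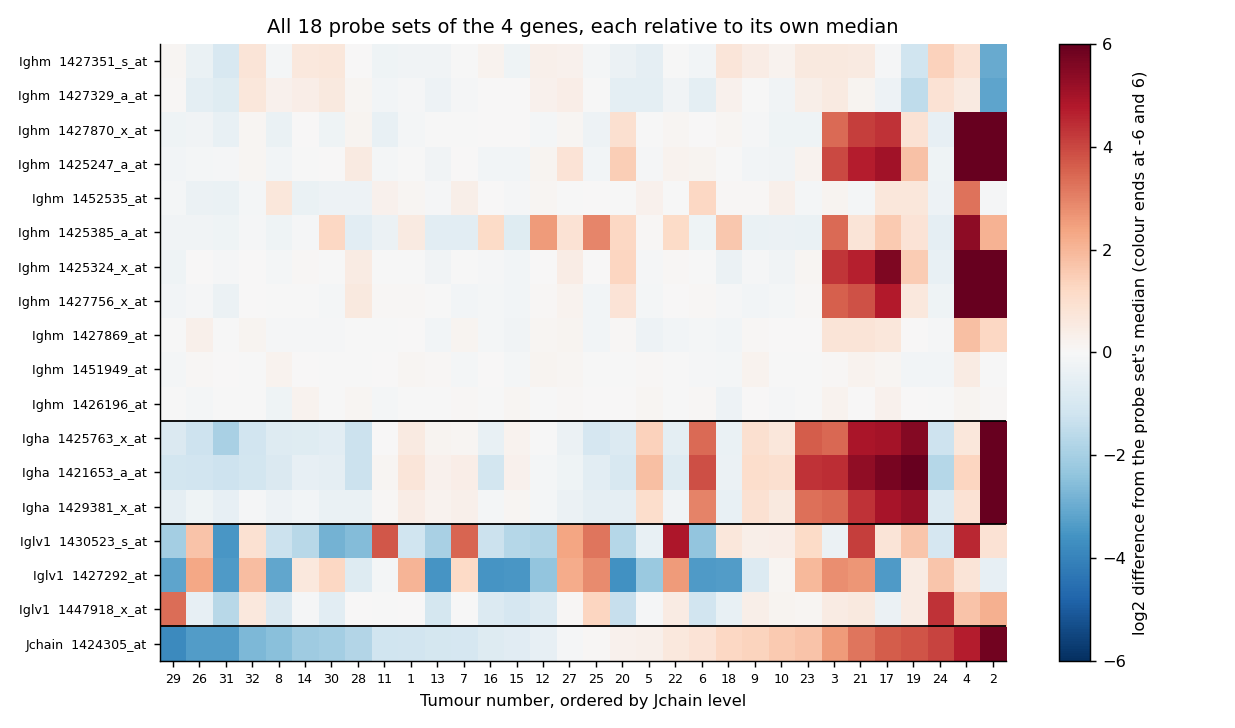
Log2 difference of each of the 18 probe sets from its own median (colour, with the largest differences sharing the end of the scale) in the 32 tumours ordered by Jchain. A set of Ighm probe sets is dark red in tumours 4 and 2, where the leading one is at 13.55 and 9.64, and the 3 rows of Igha share 1 pattern.

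Of the 6 pairs of members, Igha and Jchain moved together. Over 32 tumours r was 0.73 and rho 0.69, with two-sided permutation p-values from 100000 resamples of 1e-05, the smallest the permutations can give, and 2e-05. In the fits across all genes described below the adjusted p was 0.0115 along Igha and 0.00564 along Jchain. They shared 6 of their 8 highest tumours, numbers 2, 3, 17, 19, 21 and 23. Tumours 4 and 24 went apart: Jchain was at 11.82 and 11.16 there, and Igha at 8.18 and 6.24. Within the 7 tumours above the Igha gap r was 0.93, and within the 25 below it was 0.45. It was 0.59 in the 11 tumours with salivary transcripts and 0.79 in the other 21. Without tumours 2 and 19, the farthest from the Igha median, r was 0.62. Without tumour 2 alone it was 0.67 and the adjusted p along Igha 0.236.

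Iglv1 was less closely tied to Jchain, with r = 0.41 (permutation p = 0.0215) and rho = 0.42 (permutation p = 0.0185), and the adjusted p over all genes was 0.159 along Jchain. Here r was 0.74 in the 11 tumours with salivary transcripts and 0.27 in the other 21, a difference that was not tested. Ighm and Igha had r = -0.39 (permutation p = 0.0302) and rho = -0.12 (permutation p = 0.498), with adjusted p-values of 0.830 and 0.559. Without tumour 2 that r was -0.11, so the relation rests on 1 tumour. The remaining pairs had r = 0.25 for Igha and Iglv1 (permutation p = 0.176), 0.03 for Ighm and Iglv1 (permutation p = 0.857) and -0.11 for Ighm and Jchain (permutation p = 0.54). Ighm and Jchain turned to r = 0.28 without tumour 2. In the 25 tumours below the Igha gap Ighm and Jchain had r = 0.50, and in the 7 above it, which include tumour 2, r = -0.77. Ighm and Igha had r = 0.0033 below the gap and -0.79 above it. Igha and Iglv1 had 0.25 and 0.50, Iglv1 and Jchain 0.40 and 0.45, and Ighm and Iglv1 0.11 and 0.04. Differences between both sides were not tested. By the third Ighm probe set, 1427870_x_at, Ighm and Jchain had r = 0.70.

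**Figure D3:**
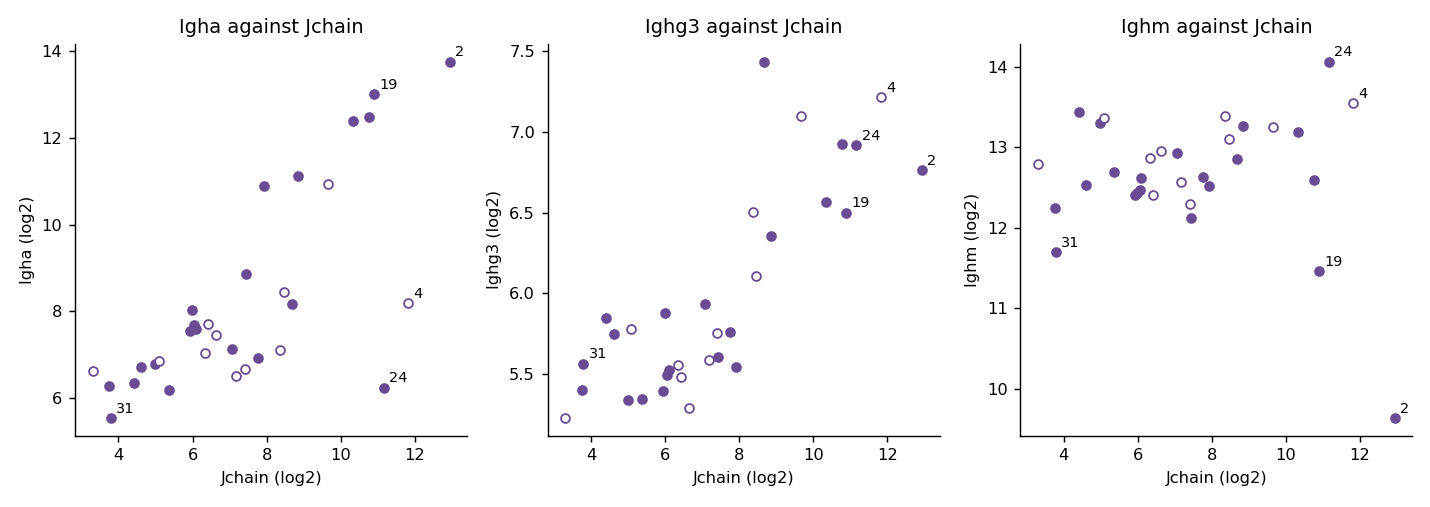
Log2 levels of Igha, Ighg3 and Ighm (vertical axes) against Jchain (horizontal axis), 1 point per tumour, where open points are the 11 tumours with salivary transcripts and labels give the tumour number. Igha rises with Jchain apart from tumours 4 and 24, and in the Ighm panel tumour 2 lies alone at 9.64.

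For each member, limma was then used to ask which of the 11227 other genes changed along its level over the 32 tumours, with Benjamini-Hochberg adjustment over all of them. The answer differed in size between the members: 3 genes along Ighm (0.0267%), 4 along Igha (0.0356%), 0 along Iglv1 (0%) and 305 along Jchain (2.72%). At an unadjusted p under 0.05 the counts were 547, 910, 634 and 2125 in the same order.

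Along Ighm, 3 genes fell and 0 rose. They were Cnst, which encodes a regulator of connexin traffic (r = -0.76, adjusted p = 0.0029), Ccr10, a homing receptor of IgA-secreting cells (r = -0.70, adjusted p = 0.0228), and Map3k20, a stress-activated kinase (r = -0.68, adjusted p = 0.0495). All 3 were highest in tumour 2, at 10.49 for Cnst, 8.35 for Ccr10 and 9.48 for Map3k20, and the second highest tumour for Ccr10 was at 6.22. Without tumour 2 the adjusted p was 0.397 for Cnst, 0.840 for Ccr10 and 0.334 for Map3k20, and Map3k20 also lost its call without any 1 of 19 other tumours. By rho the relation was weaker, at -0.31, -0.19 and -0.47. The 4 probe sets of Map3k20 disagree, with a lowest r of 0.17 with the leading one. The fourth gene by r was S1pr2, a receptor that holds B cells in the germinal centre (r = -0.67, adjusted p = 0.0659), also highest in tumour 2, at 9.22. The genes with the highest r were Zmynd11 (0.61, adjusted p = 0.0910) and Vps37b (0.61, adjusted p = 0.104), with rho of 0.34 and 0.68. Zmynd11 has 4 probe sets that disagree, with a lowest r of 0.26 with the leading one. In limma's fit without tumour 2, Zmynd11 had r = 0.21 (adjusted p = 0.698) and Vps37b r = 0.72 (adjusted p = 0.0368). That fit called 2 genes, with 0 of the 3 falling genes among them. The count of genes following Ighm rose to 21 without tumour 19 and 18 without tumour 24, and was 5 without tumour 3, 12 or 26, 6 without tumour 31 and 7 without tumour 32.

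Along Igha, 4 genes rose and 0 fell. Beside Jchain they were Grem1, an antagonist of bone morphogenetic proteins (r = 0.71, adjusted p = 0.0143), Vtn, which encodes the matrix protein vitronectin (r = 0.70, adjusted p = 0.0190), and Nkx2-3, a homeobox factor (r = 0.73, adjusted p = 0.0403). Grem1 was at 8.97 in tumour 2 and 7.33 in tumour 17, its highest tumours, against a median of 5.75, which lies below the filter level of 5.78. Vtn was at 7.98 in tumour 2 and 7.68 in tumour 21, against a median of 6.05. The span of Nkx2-3 was small, from 5.72 to 6.19, and the lowest r of its 3 probe sets with the leading one was 0.30. Without tumour 2 the count was 0, and the adjusted p of Grem1, Vtn and Nkx2-3 was 0.309. Without tumour 21 the count was 2. Nkx2-3 lost its call in 19 of the 32 fits that left out 1 tumour. The next most alike genes were Yeats4 (r = 0.66), Scgb3a1 (r = 0.65) and Ly6k (r = 0.63), and the most unlike was Psmd6 (r = -0.66, adjusted p = 0.173).

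Along the leading Iglv1 probe set 0 genes passed, and the lowest adjusted p was 0.0974, shared by 5430401H09Rik (r = 0.67) and Lxn, an inhibitor of carboxypeptidases (r = -0.66). Next came Tbrg1 (r = -0.66), Lrrk2 (r = -0.62) and Cdkn1c, an inhibitor of the cell cycle (r = 0.60). Without tumour 4 the count was 3, and without tumour 3 or 25 it was 1. Along the second Iglv1 probe set, 1427292_at, the count was 108 (0.962%), of which 61 rose and 47 fell. With 1 tumour left out it ran from 52 (without tumour 20) to 218 (without tumour 25). Lef1, a transcription factor of B cell precursors, led those that fell with r = -0.80 (adjusted p = 0.000158), and it ran from 6.26 to 11.41 over the tumours. When each tumour was left out in turn, its r stayed between -0.82 and -0.79 and its adjusted p was at most 0.000524. It also fell along the probe set shared by Iglc1 and Iglv1 (r = -0.74, adjusted p = 0.00242), where 32 genes passed (0.285%), a count that ran from 20 without tumour 31 to 122 without tumour 25. Along the leading probe set Lef1 had r = -0.46 (adjusted p = 0.736), so the call depends on the probe set. Among the 6 other immunoglobulin genes tested, Igk and Igkv8-30, both of the kappa light chain, rose along 1427292_at. The 4 probe sets of Igk disagree, with a lowest r of -0.00012 with the leading one. Along the third probe set, 1447918_x_at, 467 genes passed (4.16%), of which 239 rose and 228 fell. Among those that rose were 6 of 29 genes of immunoglobulin folding and secretion, Hsp90b1, Pdia4 and Dnajb9 included. They also held 3 of 7 T cell genes (Cd3e, Cd3g and Icos) and 2 of 3 NK cell genes (Nkg7 and Prf1). Of the B cell genes, Vpreb3, Cd79a, Cd93 and Cd24a fell and Cd40 rose. The count of 467 became 58 without tumour 24 and 1034 without tumour 29. These further probe sets were examined after the result of the leading one was seen.

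Jchain was followed by 305 genes, of which 204 rose (1.82%) and 101 fell (0.9%). The gene most like it was Ighg3, the constant region of an IgG heavy chain, with r = 0.81 and rho = 0.77 (slope 0.52 ± 0.07 log2 units per SD of Jchain, SE, n = 32, adjusted p = 6.56e-05). Ighg3 ran from 5.23 in tumour 29 over a median of 5.76 to 7.43 in tumour 10. That median lies below the level of the filter on low values, close to the background of the array. Ighg3 was above the array's median in 15 of the 32 tumours. It was at 7.21 in tumour 4, 7.10 in tumour 3, 6.92 in tumours 17 and 24 and 6.76 in tumour 2. The tumours high for Jchain were thus among those high for Ighg3, over a much narrower span of levels. Of its 4 probe sets, 1 passed the filter on low values, and the lowest correlation with the leading one was 0.20.

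After Ighg3, the genes most like Jchain were Serpinb6b, a protease inhibitor (r = 0.71, adjusted p = 0.00606), Tent5c, a poly(A) polymerase that stabilises immunoglobulin transcripts in plasma cells (r = 0.71, adjusted p = 0.00606), Ccl22, a chemokine (r = 0.70), Dcn, the matrix protein decorin (r = 0.70), and Parm1 (r = 0.70), with an adjusted p of 0.00647 for each of the last 3. Tent5c was highest in tumours 2 and 24, at 9.42 and 8.45, against a median of 5.36. Serpinb6b was highest in the same tumours, at 8.57 and 10.26, against a median of 6.44. The medians of Tent5c and of Ccl22, 5.76, lie below the filter level of 5.78. Tent5c passed that filter by its mean, 5.80, which its highest tumours raised. The most unlike genes were Trpm7, an ion channel and kinase (r = -0.70, adjusted p = 0.00647), Dhx32 (r = -0.69), Kdm5a, a histone demethylase (r = -0.66), and Alkbh8 (r = -0.66). The 6 probe sets of Kdm5a disagree, with a lowest r of -0.07 with the leading one, and for Trpm7 the lowest was 0.38. The 2 probe sets of Dcn had r = 0.58 with each other.

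The other genes were then read by list, all along Jchain and beside a median r of -0.03 over all tested genes and the 1.82% of all genes that rose. Of 6 tested genes among the 16 other immunoglobulin genes on the array, 2 rose: Ighg3 and the kappa segment Igkv9-120 (r = 0.66, adjusted p = 0.0084), which was at 13.29 in tumour 24 and 9.04 in tumour 4. The 3 probe sets of Igkv9-120 disagree, with a lowest r of -0.22 with the leading one. The median of Igkv9-120, 5.75, lies below the filter level. Igkv8-30 had r = 0.44 (adjusted p = 0.115). Of 10 plasma cell genes 2 rose, Tent5c and Ly6k (r = 0.69, adjusted p = 0.00647), and the median r was 0.30. The medians of these 2 genes, 5.36 and 5.70, lie below the filter level. The 2 probe sets of Ly6k had r = 0.47 with each other. Xbp1, the transcription factor of the secretory programme, had r = 0.48 (adjusted p = 0.0823), Ell2, an elongation factor for secreted heavy chain whose 2 probe sets disagree (r = -0.39 with each other), r = 0.51 (adjusted p = 0.0571), and Sdc1, the plasma cell marker CD138, r = 0.04. Irf4 had r = -0.27 and Mzb1 r = 0.16. Of 29 genes of immunoglobulin folding and secretion 2 rose, Creld2 (r = 0.58, adjusted p = 0.0299) and Edem1 (r = 0.60, adjusted p = 0.0232), with a median r of 0.31.

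Of 14 mature B cell genes 2 rose, the receptor Cd40 (r = 0.59, adjusted p = 0.0244) and the cytokine Ltb (r = 0.58, adjusted p = 0.0294). Of 8 genes of class switching and the germinal centre 1 rose, the death receptor Fas (r = 0.56, adjusted p = 0.0394). Of 8 genes for receptors and transport of IgA and IgM 2 rose, the macrophage genes Marco (r = 0.62, adjusted p = 0.0181) and Cd5l (r = 0.61, adjusted p = 0.0188), the second of which encodes a protein that binds IgM. Of 5 genes of the surrogate light chain and the B cell receptor 1 fell, Cd79b (r = -0.54, adjusted p = 0.0484), a signalling chain of the receptor, whose partner Cd79a had r = -0.51 (adjusted p = 0.0589). The median r of that list was -0.46. Cd79b lost its call in 21 of the 32 fits that left out 1 tumour, with an adjusted p of 0.300 without tumour 2, and Fas lost its call in 8. No gene passed among 11 of the precursor B cell, 14 B lineage transcription factors and 2 of V(D)J recombination, whose median r was 0.02, 0.08 and -0.20. In the same limma fit 2125 of all genes had an unadjusted p under 0.05. Along Ighm, Igha and Iglv1 the lists held 1 call, Ccr10 along Ighm.

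Markers of other cell types moved with Jchain as well. Of 14 listed T cell genes 12 were on the array and 7 were tested, of which 5 rose: Cd3d (r = 0.67, adjusted p = 0.00664), Cd3g (r = 0.65), Cd3e (r = 0.63), Icos (r = 0.61) and Thy1 (r = 0.53), with a median r of 0.61. Without tumour 2 none of these 5 was called in limma's fit (1277 of all genes had an unadjusted p under 0.05), with adjusted p-values from 0.0695 for Cd3d to 0.258 for Thy1, and Thy1 lost its call in 19 of the 32 such fits. Of 3 tested NK cell genes 2 rose, Klrd1 (r = 0.62) and Nkg7 (r = 0.57), and both lost the call without tumour 2 (adjusted p = 0.142 and 0.236) or without tumour 24. The median of Nkg7, 5.67, lies below the filter level. Of 9 stroma genes 1 rose, Dcn, with a median r of 0.07. Of 12 myeloid, 11 salivary gland and 8 reference genes 0 passed, with a median r of 0.22, 0.02 and -0.08. Cd3d ran from 5.56 to 11.07, with the highest values in tumour 24 at 11.07 and tumour 2 at 10.67. The mean standardised level of the T cell genes was 3.08 in tumour 24 and 2.43 in tumour 2, against 1.46 in the next tumour. Over the 32 tumours it had r = 0.64 with Jchain, and 0.50 without tumours 2 and 24. The part of these cells in the genes following Jchain was not tested further than by the fits that follow.

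**Figure D4:**
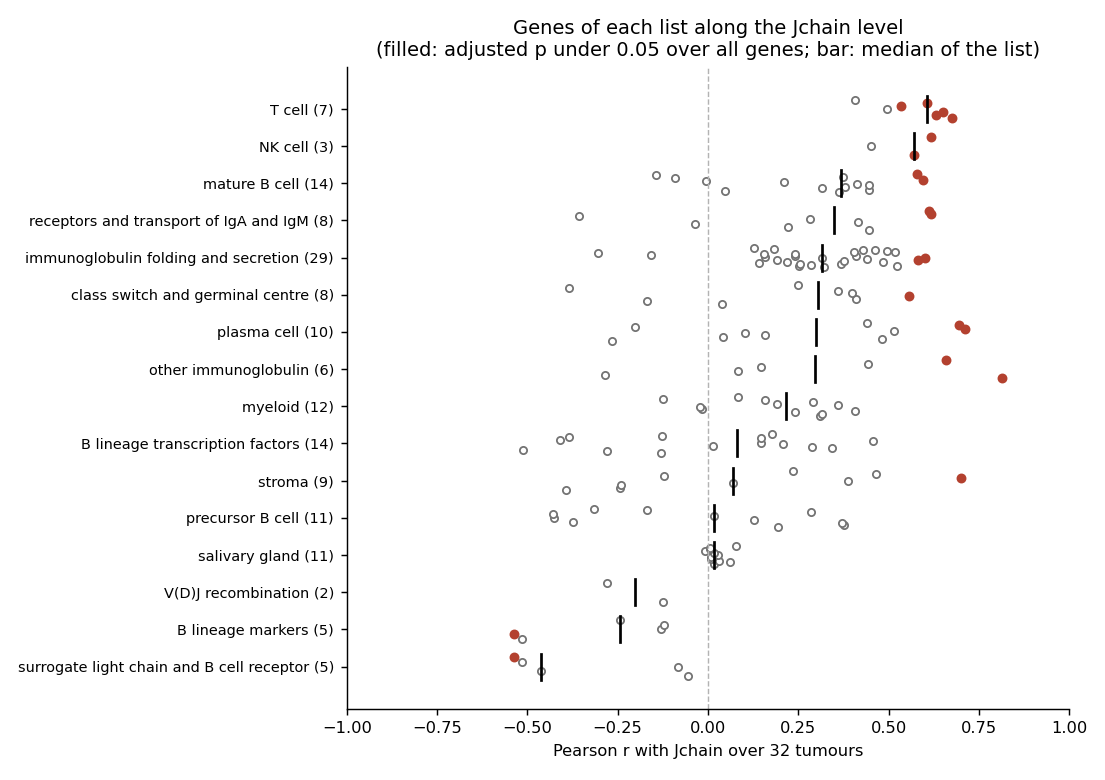
Pearson r with Jchain over 32 tumours (horizontal axis) of each tested gene of the lists (rows, number tested in brackets), where filled points have an adjusted p under 0.05 over all genes and bars are list medians. The T cell genes lie farthest right, with a median of 0.61, and the surrogate light chain and B cell receptor genes farthest left, with a median of -0.46.

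The number of genes following Jchain rested on few tumours. It was 13 without tumour 2, 65 without tumour 24 and 4 without both. It was 192 without tumour 11, 180 without tumour 14, 484 without tumour 17, 201 without tumour 28, 156 without tumour 29, 695 without tumour 30 and 191 without tumour 31. With a covariate averaged from the scores of T cell, myeloid and stroma genes it was 9, of which 4 were among the 305. Of the 305 genes, 12 were called whichever tumour was left out, among them Igha, Ighg3, Igkv9-120 and Parm1. Of the list genes, Creld2, Edem1, Cd40 and Cd5l lost their call without tumour 2 or 24, Ltb without tumour 2, 24 or 29, Ly6k without tumour 2 and Marco without tumour 24. Igha was also called along Jchain without tumours 2 and 24 and with the covariate, as was Ighg3. Without tumours 2 and 24 the r with Jchain was 0.77 for Igha and 0.79 for Ighg3. Igkv9-120 was called without both tumours but not with the covariate, where its adjusted p was 0.182. Tent5c, Ly6k and the T cell genes Cd3d, Cd3e and Cd3g were not called without both tumours, with adjusted p-values of 0.144, 0.0975, 0.285, 0.394 and 0.364.

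**Figure D5:**
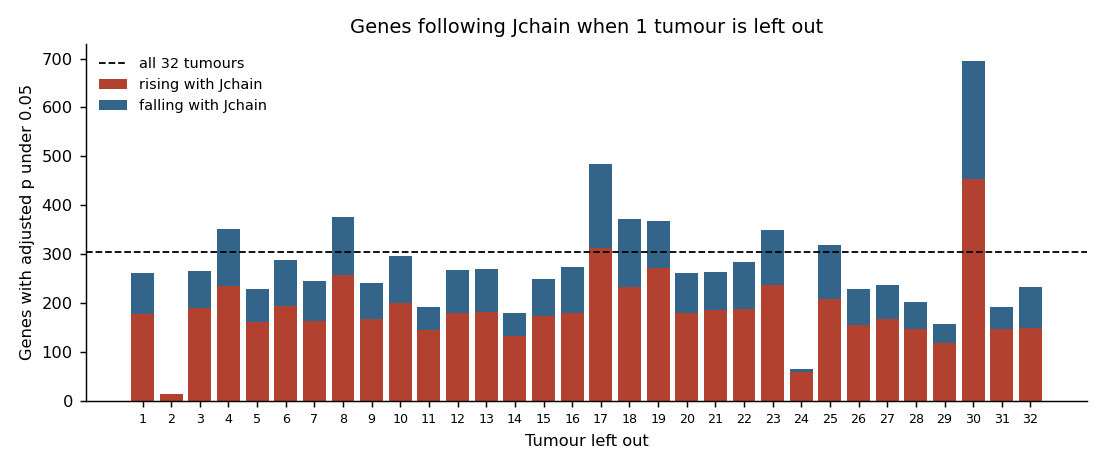
Number of genes following Jchain at an adjusted p under 0.05 (vertical axis) when the tumour on the horizontal axis is left out, split into genes that rise and fall, with the count over all 32 tumours (305) as a dashed line. The bars reach from 13 without tumour 2 to 695 without tumour 30.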

How the data were processed

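Total RNA of each tumour was labelled as biotin cRNA and hybridised to 1 array, per the labels' protocols. The authors deposited 1 log2 value per probe set and array, and the submitters' processing notes name RMA and the affy package. RMA gives all arrays the same distribution, so a shift shared by most genes is not visible. For software versions, array batches and scan dates the entry is: not given in the sources used here. All 32 columns were matched to a tumour, with 0 to spare.

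The platform annotation gives 1 symbol to 34958 of the 45101 probe sets, several to 932 and none to 9211, and only the first were named, except where stated. The filter on low values kept probe sets whose mean reached the median over all probe sets (5.78), and the highest mean stood for a gene. Beyond these steps, levels were not compared between probe sets, except where some were set against the array's median or the filter level. Genes were fitted along each member's leading probe set, scaled to an SD of 1, by lmFit and eBayes of limma 3.58.1 (R 4.3.3), at an adjusted p under 0.05. An r in the text is Pearson's. Pairs were tested in Python 3.11.15 with scipy 1.17.1, on tables read by pandas 2.3.3 and numpy 2.4.6, and matplotlib 3.10.9 drew the figures. For each member the 6 genes of highest and the 4 of lowest r could be named, beside the members of 15 lists and of the remaining immunoglobulin genes. The members and lists were chosen with earlier results of these data known. Steps were tested on simulated data. Sequences and chromosomes are from RefSeq. Alternatives were the second probe set or the mean of probe sets, the filter, the array scale, covariates, ranks, and each tumour left out. Those added after seeing the data were the third probe set, the probe set shared with Iglc1, and the sets without the 2 tumours farthest from a median, without the 2 of highest T cell score, and below the Igha gap.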

Additional observations from a re-analysis of the deposited data

How the results depend on the processing

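No paired analysis was possible because the tumours form 1 group. The counts of genes with an adjusted p under 0.05 in limma changed as follows, and the cause was not tested. Genes following Ighm (3) numbered 6 by its second probe set, 31 with no filter, 9 after a shift by reference genes, 1 with salivary transcripts as a block, 6 in the tumours without them, and 0 by ranks (456 at an unadjusted p under 0.05) or without the 2 tumours farthest from the median or of highest T cell score, which are the same tumours (599). Genes following Igha (4) numbered 7 with no filter, 10 in the tumours without salivary transcripts, 1 without the tumours of highest T cell score, 1 below the Igha gap, and 0 with the 75th percentile filter (549 unadjusted), the 3' minus 5' covariate (640), ranks (1019) or without the 2 farthest tumours (467). Genes following Iglv1 (0) numbered 59 by the mean of probe sets, 108 by the second, 467 by the third, 32 by the one shared with Iglc1 and 1 without salivary transcripts. Genes following Jchain (305) numbered 30 with the stricter filter, 103 by ranks, 9 with the T cell, myeloid and stroma covariate, 7 without the 2 farthest tumours and 4 without those of highest T cell score. Igha with Jchain lost its call along Igha with the 3' minus 5' covariate (r = 0.66, adjusted p = 0.117), by ranks (0.69, 0.0782), without the 2 farthest tumours (0.62, 0.372) and below the gap (0.45, 0.639). Ighm with Jchain reversed by the third Ighm probe set (0.70), as did Cnst (0.45), Ccr10 (0.57) and Map3k20 (0.16) along Ighm. By the mean of the Ighm probe sets Cnst (0.17) and Ccr10 (0.27) reversed. With 1 tumour left out at a time the counts ran from 2 to 21 for Ighm, 0 to 6 for Igha, 0 to 3 for Iglv1 and 13 to 695 for Jchain. The r of Igha and Jchain then ran from 0.67 to 0.81, of Igha and Iglv1 from 0.16 to 0.31, of Ighm and Igha from -0.46 to -0.11, of Ighm and Iglv1 from -0.04 to 0.10, of Ighm and Jchain from -0.23 to 0.28, and of Iglv1 and Jchain from 0.33 to 0.45. The SDs ran from 0.55 to 0.79 for Ighm, 2.04 to 2.29 for Igha, 2.22 to 2.38 for Iglv1 and 2.32 to 2.54 for Jchain. From the median absolute deviation the SD of Igha was 1.27. In 132 further comparisons with an alternative, leave-one-out fits apart, counts stayed within 1.5 times and pairs on their side of the threshold. The 132 include SDs, which were counted as unchanged if they moved by less than their own size. A fall always meets that mark, so it says little about how stable the SDs are. Pairs that were not called could still change sign: Ighm with Igha had r = 0.45 by the mean of the Ighm probe sets and 0.63 by the third, and Ighm with Jchain 0.65 by the mean and 0.12 by ranks. A near count need not be of the same genes: by the mean of the Ighm probe sets 2 genes rose, by the third 3 rose and 1 fell, with 0 of the 3 falling genes among them, and the 1 gene below the Igha gap fell. Single named genes stayed on their side of the threshold in 565 such comparisons, lost a call in 139 and gained one in 22. The 32 arrays, with 1 per tumour, limit the precision, and values of probe sets near the filter are close to the background of the array.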

Other observations

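Tumour 2 stood at an end of the range for several further genes of the lists. Bcl6, the transcription factor of germinal centre B cells, was at 10.90 there, and its second highest tumour, number 12, was at 8.11. Of the plasma cell genes, Xbp1 was highest there at 12.26, Ell2, whose 2 probe sets disagree, at 11.17, Tent5c at 9.42 and Ly6k at 9.41. Irf4, Mzb1 and Sdc1 were not: Irf4 was at 9.23 and Mzb1 at 12.62, against medians of 9.55 and 12.44. Sdc1 was at 8.98 in tumour 2 and highest in tumour 29, at 10.67. Ighv14-2, a heavy chain variable segment, was lowest there at 6.04 and highest in tumour 8 at 12.10. Of the B lineage markers, Cd79a and Pax5 were also lowest in tumour 2, at 9.37 and 7.16, and Cd79b was at 11.26 against a median of 12.13. Cd72 and Blnk went the other way, at 10.86 and 11.92 there against medians of 10.31 and 11.66.

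Pigr, the epithelial receptor that carries polymeric IgA and IgM into secretions, did not pass the filter on low values. It was highest in tumour 9 at 8.10, where salivary transcripts were high, and in tumour 24 at 7.70, where they were low. A probe set that names Ighv1-72 together with Ighm (1427851_x_at) followed Jchain with r = 0.64 (limma adjusted p = 0.0156 over all probe sets), and 0.114 without tumour 2. Its mean, 4.66, lies below the filter level. These genes and this probe set were picked after their values were seen.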
